A study of Mus musculus with 12 samples.

Results

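Glutathione S-transferases (GST, with the membrane-bound microsomal MGST), UDP-glucuronosyltransferases (UGT) and cytosolic sulfotransferases (SULT) were followed in mouse liver after deletion of the HGF receptor Met in hepatocytes and after injection of hepatocyte growth factor (HGF). The members were the probe sets annotated with 1 gene symbol that starts with Gsta, Gstm, Gstp, Gstt, Gstk, Gsto, Gstz, Mgst, Ugt1a, Ugt2, Ugt3a or Sult and a number. This rule, which uses no measured value, gave 42 of 16475 probe sets, 1 per gene: 22 of the GST family, 8 of the UGT family and 12 of the SULT family. No Ugt1a gene is among them.

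The 12 livers, 1 Affymetrix array each, fall into 4 groups of 3 animals. Knockout livers (MKO), from c-Met floxed mice carrying a Cre transgene, were taken 2 h after intraperitoneal injection of 2 µg recombinant mouse HGF or without HGF. Control livers (CTRL), from mice with floxed c-Met alleles and no stated Cre transgene, were taken in the same 2 states. The Cre was Alfp-Cre (albumin and alpha-fetoprotein promoter and enhancer, active before birth) or Alb-Cre (albumin promoter, active after birth), and the labels do not say which one each knockout animal carried. Both are used to delete genes in hepatocytes, and Alfp-Cre also acts in bile duct cells, while endothelial and immune cells keep Met. The labels mention both HGF and NaCl injection without tying NaCl to an animal, so an effect of HGF and one of the injection cannot be told apart here. Age and sex are not given in the sources used here, and Xist lay between 1.94 and 2.11 and the Y-linked Eif2s3y between 7.05 and 7.84 on the log2 scale over all arrays.

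All 3 families catalyse phase II conjugation, the step of drug and hormone metabolism that makes a compound more soluble and ready for export. GSTs couple reactive electrophiles to glutathione, UGTs transfer glucuronic acid from UDP-glucuronic acid, and SULTs transfer a sulfate group from the donor PAPS. Hepatocytes are the main site of these reactions, and many GST genes are known targets of the antioxidant response element bound by the factor Nrf2. Members of the Gsta, Gstm and Ugt2b groups are close paralogs, so a probe set named for one may also detect a neighbour.

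The genes lie in groups in the RefSeq gene order. The 7 Gstm genes are neighbours on chromosome 3, in the order Gstm5, Gstm7, Gstm6, Gstm3, Gstm2, Gstm1 and Gstm4. The theta-class genes Gstt3, Gstt1, Gstt4 and Gstt2 follow each other on chromosome 10. A run of 10 members on chromosome 5 joins 2 families: Ugt2b34, Ugt2b1, Ugt2b36, Ugt2b5, Ugt2b37, Ugt2a3 and Ugt2b38, followed by Sult1b1, Sult1d1 and Sult1e1. Gsto1 and Gsto2 are neighbours on chromosome 19, as are Sult1c1 and Sult1c2 on chromosome 17.

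Promoter sequence from RefSeq (GRCm38.p6) was available for 38 of the 42 genes, as windows of 300 bases from 250 bases before to 50 after an annotated start. The core letters of the antioxidant response element, TGACNNNGC on either strand, stood in a window of 4 of these 38 genes, all of them GST family members: Gsta3, Gstm5, Gstm7 and Mgst1. Over all genes with such windows, 13.99% had such a match. The 38 genes were 20 GST, 7 UGT and 11 SULT genes. A difference between the families cannot be read from so few matches and was not tested. The 150 bases just before the annotated span of 5 GST genes are printed to show this element in 3 of the genes that hold it, and its absence from the same stretch of Gstm3 and Gstm1, the GST genes with the smallest p for HGF in control livers. Capitals mark the letters of the element. The stretches are chr3:107969175-107969324 on the minus strand for Gstm3, chr3:108017974-108018123 on the minus strand for Gstm1, chr3:107895704-107895853 on the plus strand for Gstm5, chr1:21240415-21240564 on the plus strand for Gsta3 and chr6:138140377-138140526 on the plus strand for Mgst1.
Gstm3: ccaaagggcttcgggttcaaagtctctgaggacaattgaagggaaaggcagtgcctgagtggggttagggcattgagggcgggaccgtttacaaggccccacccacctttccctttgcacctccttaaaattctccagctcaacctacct
Gstm1: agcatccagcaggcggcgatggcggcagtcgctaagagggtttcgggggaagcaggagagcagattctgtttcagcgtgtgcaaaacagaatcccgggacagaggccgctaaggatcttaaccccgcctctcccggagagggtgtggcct
Gstm5: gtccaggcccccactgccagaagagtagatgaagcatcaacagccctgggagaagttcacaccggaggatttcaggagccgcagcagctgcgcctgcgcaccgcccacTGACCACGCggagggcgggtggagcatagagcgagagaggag
Gsta3: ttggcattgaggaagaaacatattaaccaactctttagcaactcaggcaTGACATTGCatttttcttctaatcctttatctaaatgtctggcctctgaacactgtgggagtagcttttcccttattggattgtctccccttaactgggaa
Mgst1: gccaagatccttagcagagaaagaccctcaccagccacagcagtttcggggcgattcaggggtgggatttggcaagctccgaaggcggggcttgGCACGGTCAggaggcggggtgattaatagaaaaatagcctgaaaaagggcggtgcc

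In Mgst1 the element lies on the reverse strand. A match describes letters and not a bound site, and a missing match says only that the letters are not in that window. Other motifs were counted on both strands of the same windows. The xenobiotic response core GCGTG was found in 8 of 38 member genes and 35.15% of all genes, and the TATA box letters TATAAA in 8 of 38 and 15.67%. The CCAAT letters stood in 18 of 38 member genes and 41.06% of all genes. The HNF1 motif letters GTTAAT stood in 4 of 38 member genes and 8.24% of all genes.

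Values are given as log2(intensity + 1). Probe sets at 4 or more on at least 3 arrays were tested, which left 6683 of 16475 probe sets and 32 of 42 members: 19 GST, 8 UGT and 5 SULT genes. The other 10 members lay near the array background in all groups. They were Gsto2, Gstt4 and Mgst2, and the SULT genes Sult1c1, Sult1c2, Sult1e1 (the estrogen sulfotransferase), Sult2b1, Sult3a1, Sult4a1 and Sult6b1. Sult1c2 came closest to the threshold among these, with 2.76, 4.25 and 2.93 in knockout livers with HGF, 3.73, 3.06 and 3.53 in knockout livers without HGF, 2.99, 2.58 and 2.82 in control livers with HGF and 3.08, 2.73 and 3.18 in control livers without HGF. Ugt2b37 lay just above it, between 3.72 and 4.98 over the 12 arrays. GCRMA compresses such low values, so differences of these genes are uncertain.

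The arrays were alike in range, with 37.9% to 38.4% of probe sets at or above 4. The 6 control arrays carry numbers 1 to 6 and the 6 knockout arrays 7 to 12, so genotype and array order cannot be told apart. The Met probe set lay between 6.29 and 7.40 on all arrays and did not separate the genotypes (averaged knockout effect 0.10 ± 0.18, SE, adjusted p = 0.872 by limma). Pearson's r between arrays of a group was 0.9225 to 0.9708 in knockout livers with HGF, 0.9245 to 0.9846 in knockout livers without HGF, 0.9762 to 0.9892 in control livers with HGF and 0.9909 to 0.9921 in control livers without HGF. A response index was computed from the tested probe sets other than the members, scaled so that the mean of the control livers is 1 with HGF and 0 without. It was 0.32, 0.02 and 0.94 in knockout livers with HGF, against 0.12, 0.98 and 0.04 in knockout livers without HGF. With HGF, replicates 1 and 2 of the knockouts thus stood nearer the untreated controls and replicate 3 near the treated ones. Without HGF, replicate 2 stood near the treated controls and replicates 1 and 3 near the untreated ones. Each knockout group therefore held livers at both levels. Results that change are also given without replicate 2 of both knockout groups, the 2 arrays with the lowest index with HGF and the highest without. The index comes from these same data, so counts from that fit follow in part from this choice and are not separate evidence.

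The first comparison was that of control livers with and without HGF. All 19 tested GST genes were lower on average in control livers with HGF than in those without, with a median difference of -0.31 on the log2 scale. The UGT family had a median of -0.15, with 7 of 8 genes lower, and the SULT family a median of -0.21, with 3 of 5 lower. Over all 6683 tested probe sets the median was -0.09, and 64.4% were lower. None of the 32 members was called by limma at an adjusted p under 0.05, against 0.404% of all tested probe sets. At an unadjusted p under 0.05, 11 members were lower (10.6% of all probe sets were) and 0 were higher (8.95% of all). The groups did not overlap, with all animals lower, for 14 members (23.7% of all probe sets), and with all animals higher for 0 (14.1% of all). In whole liver, fewer cells of a type and less RNA per cell cannot be told apart.

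**Figure D1:**
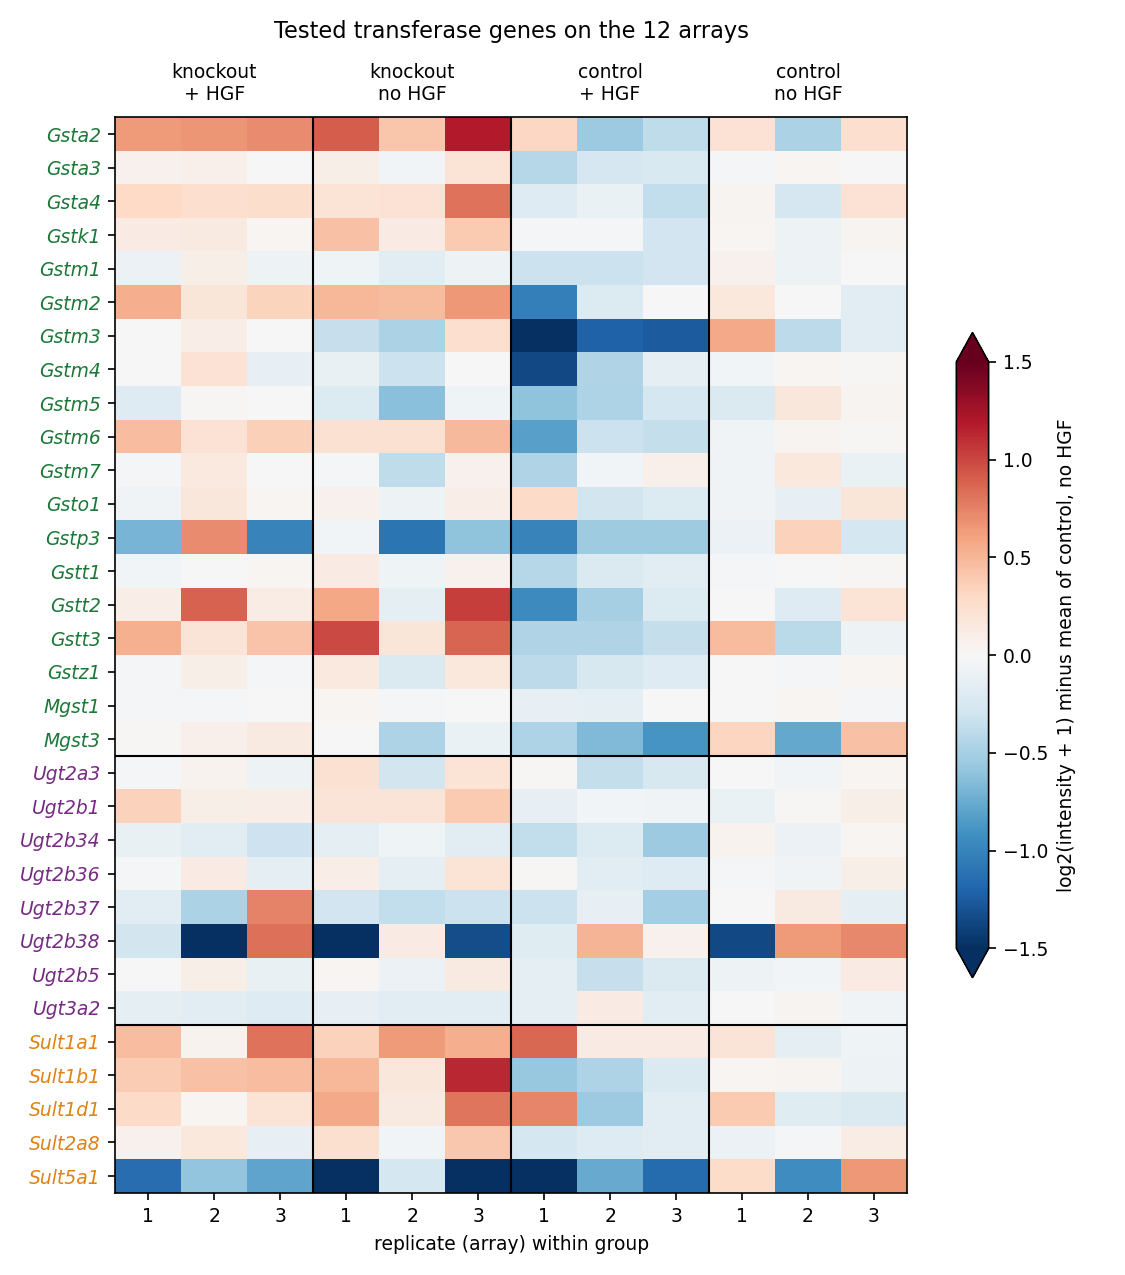
Heat map of the 32 tested genes (rows, grouped as GST, UGT and SULT) on the 12 arrays (columns, by group and replicate), coloured by log2(intensity + 1) minus the mean of control livers without HGF; differences beyond 1.5 take the end colour. GST rows are mostly blue in control livers with HGF, where all 19 group means are lower than without HGF.

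The mu class, encoded by the Gstm genes, held the largest of these differences within the GST family. All 7 genes were lower on average, with a median of -0.45, and 5 of them reached an unadjusted p under 0.05. Gstm3 read 9.04, 9.62 and 9.59 in control livers with HGF, against 11.40, 10.44 and 10.66 in control livers without HGF. The 3 HGF-treated controls were lower than every other liver on the array set, and replicate 1 of the untreated controls was the highest. The difference was -1.42 ± 0.27 (SE), 2.67-fold lower, with an adjusted p of 0.0547 by limma. It passed the threshold when only the control arrays were fitted (adjusted p = 0.0227 by limma) and without replicate 2 of both knockout groups (adjusted p = 0.0169 by limma). Those fits called 12% and 8.16% of all tested probe sets.

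Gstm1, a mu-class enzyme abundant in mouse liver, read 12.40, 12.40 and 12.43 in control livers with HGF, against 12.79, 12.64 and 12.73 in control livers without HGF. The groups did not overlap, and the treated animals differed little among themselves. The difference was -0.31 ± 0.09 (SE, adjusted p = 0.117 by limma). For Gstm6, also of the mu class, the values were 9.29, 9.79 and 9.76 in control livers with HGF, against 10.06, 10.15 and 10.13 in control livers without HGF. The groups lay apart. Replicate 1 was the lowest of the treated controls, as it was for every other Gstm gene except Gstm1, so this animal weighs on the class median. The difference was -0.50 ± 0.14 (SE, adjusted p = 0.118 by limma).

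In the other GST classes Gsta3 had the smallest p. Gsta3, an alpha-class enzyme that detoxifies the aflatoxin epoxide in mice, read 12.62, 12.79 and 12.81 in control livers with HGF, against 13.02, 13.08 and 13.05 in control livers without HGF. Its groups did not overlap, and the difference was -0.31 ± 0.10 (SE, adjusted p = 0.133 by limma). Gstt1, a theta-class enzyme that acts on small halogenated compounds, differed by -0.27, and Gstz1, which isomerises maleylacetoacetate in tyrosine breakdown, by -0.28. The microsomal enzyme Mgst3 differed by -0.67, but its groups overlapped. Mgst1, the main microsomal GST of liver, differed by -0.09 and Gsto1, of the omega class, by -0.06, both with overlapping groups.

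Among the UGT genes Ugt2b34 differed most clearly, with 10.71, 10.88 and 10.54 in control livers with HGF, against 11.14, 11.001 and 11.11 in control livers without HGF. Every treated animal was lower than every untreated one. The difference was -0.37 ± 0.11 (SE, adjusted p = 0.117 by limma). In knockout livers Ugt2b34 read 10.97, 10.92 and 10.78 with HGF, against 10.95, 11.02 and 10.92 without. Ugt2b5, from the same run of genes on chromosome 5, read 12.81, 12.60 and 12.73 in control livers with HGF, against 12.88, 12.91 and 13.07 in control livers without HGF. These groups were also apart, by a difference of -0.23 ± 0.11 (SE, adjusted p = 0.26 by limma). Its knockout values, 12.95, 13.04 and 12.84 with HGF against 12.98, 12.86 and 13.08 without, overlapped. For Ugt2a3 the values were 10.99, 10.61 and 10.73 with HGF, against 10.98, 10.94 and 11.003 without HGF in control livers, which overlapped. Knockout livers read 10.95, 11.03 and 10.90 with HGF, against 11.20, 10.70 and 11.18 without. The other 5 UGT genes overlapped between the groups and had differences of -0.32 to 0.13.

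The SULT genes showed no common direction in control livers. Sult5a1 read 4.68, 6.39 and 6.00 in control livers with HGF, against 7.42, 6.22 and 7.80 in control livers without HGF. The groups overlapped through replicate 2, and the difference was -1.46 ± 0.63 (SE, adjusted p = 0.234 by limma). Sult1b1, a thyroid hormone sulfotransferase, read 7.12, 7.22 and 7.47 in control livers with HGF, against 7.72, 7.73 and 7.61 in control livers without HGF. The groups did not overlap, with a difference of -0.41 ± 0.20 (SE, adjusted p = 0.299 by limma). Sult2a8, a bile acid sulfotransferase of mouse liver, read 11.99, 12.07 and 12.09 with HGF, against 12.17, 12.23 and 12.37 without HGF in control livers. It was apart too, by -0.21 ± 0.13 (SE, adjusted p = 0.402 by limma). Sult1a1, the phenol sulfotransferase, read 12.16, 11.43 and 11.42 with HGF, against 11.50, 11.17 and 11.23 without HGF in control livers. It ran the other way by 0.37, with overlapping groups. With 3 animals per group, an exact permutation test of a single gene cannot go below 0.1.

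**Figure D2:**
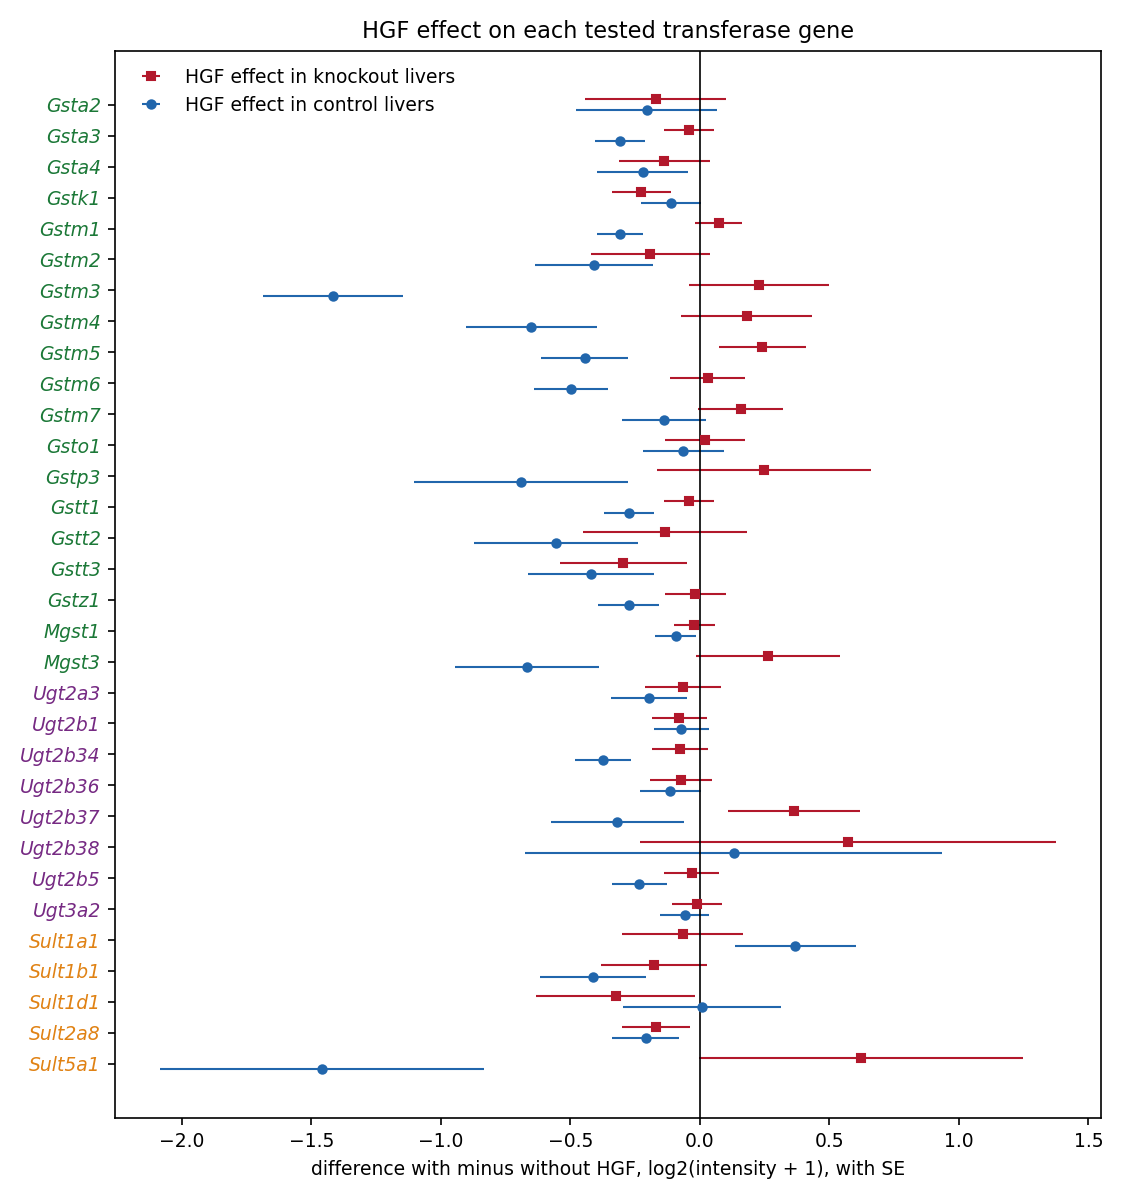
Difference with minus without HGF for each tested gene, in log2(intensity + 1), in knockout livers (red squares) and control livers (blue circles), with bars of 1 SE from limma. In control livers all 19 GST genes lie left of 0, with Gstm3 at -1.42, while in knockout livers the GST median is -0.02.

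In knockout livers the median HGF difference lay near 0 for the GST and UGT families and lower for the SULT family. None of the 32 was called by limma, as was the case for 0% of all tested probe sets, and the lowest adjusted p was 0.9995. None reached an unadjusted p under 0.05, against 1.9% of all probe sets. The medians were -0.02 for GST, -0.05 for UGT and -0.17 for SULT genes, and 0.00 over all tested probe sets. Lower on average were 10 of 19 GST, 6 of 8 UGT and 4 of 5 SULT genes, against 51.3% of all tested probe sets. Gstm3 read 10.83, 10.93 and 10.84 in knockout livers with HGF, against 10.48, 10.36 and 11.08 in knockout livers without HGF. The groups overlapped, and the difference was 0.23 ± 0.27 (SE). Gstm1 read 12.63, 12.81 and 12.64 in knockout livers with HGF, against 12.66, 12.56 and 12.64 in knockout livers without HGF, again overlapping.

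The smallest p values of each family in this comparison were as follows. Gstk1, the GST of mitochondria and peroxisomes, read 10.94, 10.95 and 10.85 in knockout livers with HGF, against 11.26, 10.94 and 11.21 in those without (difference -0.23 ± 0.12, SE). Its control values were 10.78, 10.80 and 10.53 with HGF, against 10.85, 10.74 and 10.86 without. For Gstm5 the values were 7.66, 7.87 and 7.86 in knockout livers with HGF, against 7.65, 7.22 and 7.80 in those without (difference 0.24 ± 0.17, SE). In control livers Gstm5 read 7.25, 7.39 and 7.59 with HGF, against 7.64, 8.03 and 7.90 without. In knockout livers both pairs of groups overlapped, and for both genes replicate 2 without HGF was the lowest of its group. Ugt2b37 read 4.07, 3.76 and 4.98 in knockout livers with HGF, against 3.94, 3.86 and 3.91 in those without. Its control values were 3.91, 4.12 and 3.72 with HGF, against 4.24, 4.37 and 4.09 without. Ugt2b1 was the other UGT gene of this pair, and its values stand with the averaged comparison. Sult1d1, which sulfates catecholamines in mice, read 9.31, 9.05 and 9.23 in knockout livers with HGF, against 9.58, 9.16 and 9.82 in those without. In control livers it read 9.75, 8.48 and 8.85 with HGF, against 9.41, 8.84 and 8.81 without. Sult2a8 read 12.33, 12.42 and 12.13 in knockout livers with HGF, against 12.50, 12.21 and 12.67 in those without (difference -0.17 ± 0.13, SE). These groups overlapped as well.

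Without replicate 2 of both knockout groups, 0 members were called by limma for HGF in knockout livers, while 4.16% of all tested probe sets were. At an unadjusted p under 0.05, 3 members were then lower (12.3% of all probe sets) and 1 higher (10.2% of all). The arrays left out were chosen by the index, so the larger shares over all probe sets follow in part from that choice. The medians were -0.10 for GST, -0.07 for UGT and -0.36 for SULT genes, and that of the 7 Gstm genes was 0.00.

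**Figure D3:**
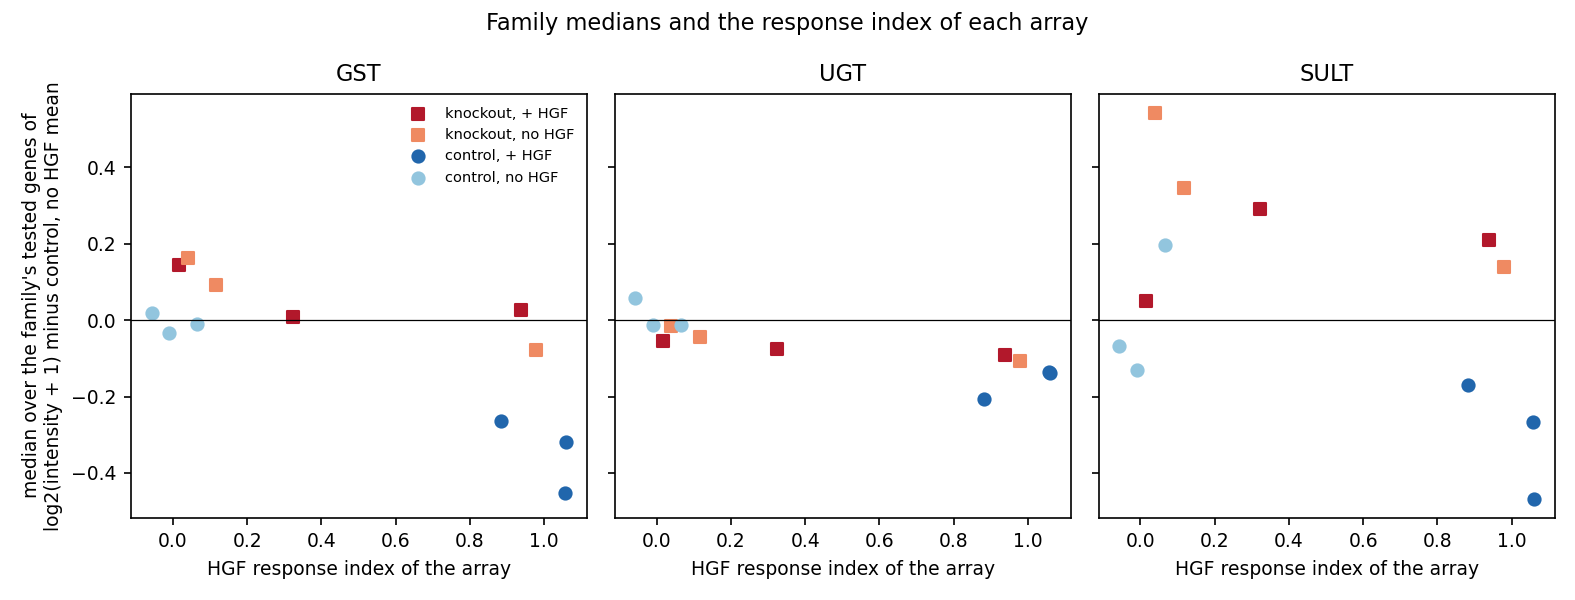
Median over the tested genes of a family, as log2(intensity + 1) minus the mean of control livers without HGF, against the response index of each array, which leaves the members out; squares are knockout livers and circles control livers. The 3 control livers with HGF have GST medians of -0.45, -0.32 and -0.26. The 2 knockout arrays with an index of 0.94 and 0.98 have GST medians of 0.03 and -0.08. The knockout arrays with an index of 0.02, 0.04 and 0.12 have GST medians of 0.15, 0.16 and 0.09.

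The family levels on each array were set beside the response index. The median deviation of the GST genes from the mean of untreated controls was 0.01, 0.15 and 0.03 in knockout livers with HGF and 0.09, -0.08 and 0.16 in knockout livers without HGF. It was -0.45, -0.32 and -0.26 in control livers with HGF. The 2 knockout arrays whose index resembled HGF-treated controls, replicate 3 with HGF and replicate 2 without, stood at 0.03 and -0.08. Both lay above all 3 HGF-treated controls. The 3 knockout arrays with the lowest index, replicate 2 with HGF and replicates 1 and 3 without, stood higher, at 0.15, 0.09 and 0.16. Replicate 1 with HGF, at an index of 0.32, stood at 0.01. Whether GST levels follow the index within knockouts was not tested. For the Gstm genes alone, replicate 2 without HGF stood at -0.33, within the span of the HGF-treated controls (-0.82, -0.32 and -0.26), and replicate 3 with HGF at 0.01. The UGT medians covered a narrow range, from -0.09 to -0.05 in knockout livers with HGF, -0.11 to -0.02 in knockout livers without HGF and -0.21 to -0.14 in control livers with HGF.

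The difference between the 2 HGF effects, taken as knockout minus control, was positive for 28 of 32 members, against 60.5% of all tested probe sets. The median was 0.27 for GST, 0.17 for UGT and 0.04 for SULT genes, and 0.07 over all probe sets. No member was called by limma, and 0% of all tested probe sets were. At an unadjusted p under 0.05, 7 members were positive (5.79% of all) and 0 negative (5.04% of all). For the 7 Gstm genes all differences were positive, with a median of 0.53, and 5 had an unadjusted p under 0.05. Gstm3 differed by 1.64 ± 0.38 (SE, adjusted p = 0.265 by limma), Gstm1 by 0.38 ± 0.13 and Gstm5 by 0.69 ± 0.24. Sult5a1 had the highest value, 2.08 ± 0.88 (SE, adjusted p = 0.449 by limma), and Sult1a1 the lowest, -0.43 ± 0.33 (SE). In the UGT family Ugt2b34 differed by 0.30 ± 0.15 (SE) and Ugt2b37 by 0.68 ± 0.36 (SE). Without replicate 2 of both knockout groups 21 of 32 members were positive, against 52.5% of all tested probe sets. The medians were then 0.16 for GST, 0.07 for UGT and -0.15 for SULT genes, 0.48 for the Gstm genes and 0.02 over all. No member was called by limma, against 0.359% of all probe sets, and 4 were positive at an unadjusted p under 0.05 (6.72% of all).

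Knockout and control livers were then compared within each HGF state. The comparison with HGF uses the same treated control livers as the HGF effect in controls, so the 2 are not separate evidence. With HGF, 30 of 32 members were higher on average in knockout livers than in control livers, against 56.8% of all tested probe sets. The medians were 0.39 for GST, 0.18 for UGT and 0.24 for SULT genes, and 0.04 over all. None was called by limma, against 0.015% of all probe sets. At an unadjusted p under 0.05, 16 members were higher (5.3% of all) and 0 lower (4.28% of all). Gstm6 had the smallest p, with 10.57, 10.33 and 10.48 in knockout livers with HGF, against 9.29, 9.79 and 9.76 in control livers with HGF. All knockout livers were higher than all controls, by 0.84 ± 0.14 (SE, adjusted p = 0.337 by limma). For Gstm3 the difference was 1.45 ± 0.27 (SE, adjusted p = 0.381 by limma), from the values given above, again with no overlap.

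Without HGF the family medians differed in sign, a difference between families that was not tested. The median knockout difference was 0.03 for GST, -0.05 for UGT and 0.50 for SULT genes, and -0.03 over all tested probe sets. None of the members was called by limma, against 0.0599% of all probe sets. At an unadjusted p under 0.05, 7 members were higher (4.1% of all) and 1, Sult5a1, was lower (6.72% of all). Within the GST family the alpha-class genes had a median of 0.41 and the theta-class genes 0.50, whereas the Gstm genes had a median of -0.11. Gsta2, an alpha-class enzyme, read 11.66, 11.16 and 11.94 in knockout livers without HGF, against 10.97, 10.28 and 10.998 in control livers without HGF. The groups did not overlap, and the difference was 0.84 ± 0.27 (SE, adjusted p = 0.289 by limma). Sult5a1 read 5.65, 6.89 and 4.51 in knockout livers without HGF, against 7.42, 6.22 and 7.80 in control livers without HGF, with overlap. With HGF its knockout values were 6.01, 6.56 and 6.36. Without replicate 2 of both knockout groups the medians without HGF were 0.09 for GST, -0.03 for UGT and 0.44 for SULT genes, and -0.05 for the Gstm genes. With HGF they were 0.35, 0.16 and 0.27 in the same order, and 0.59 for the Gstm genes. No member was called by limma in either state, against 2.69% of all probe sets without HGF and 0.0299% with HGF.

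Averaged over both HGF states, 28 of 32 members were higher in knockout livers, against 50.2% of all tested probe sets. The GST median was 0.26, the UGT median 0.05 and the SULT median 0.29, and that of all probe sets was 0.00. None was called by limma, against 0.015% of all probe sets. At an unadjusted p under 0.05, 12 members were higher (4.47% of all) and 0 lower (4.91% of all). All 6 knockout livers were higher than all 6 control livers for 5 members (0.374% of all probe sets), namely Gstm6, Gstm2, Gsta2, Sult1b1 and Ugt2b1, and lower for 0 (0.374% of all). This count joins livers with and without HGF, and the knockout arrays all carry later array numbers. The average also includes the treated control livers of the HGF effect in controls, so the 2 are not separate evidence. Without HGF alone, 20 of 32 members were higher in knockout livers (45.1% of all probe sets), with medians of 0.03 for GST and -0.11 for Gstm genes.

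**Figure D4:**
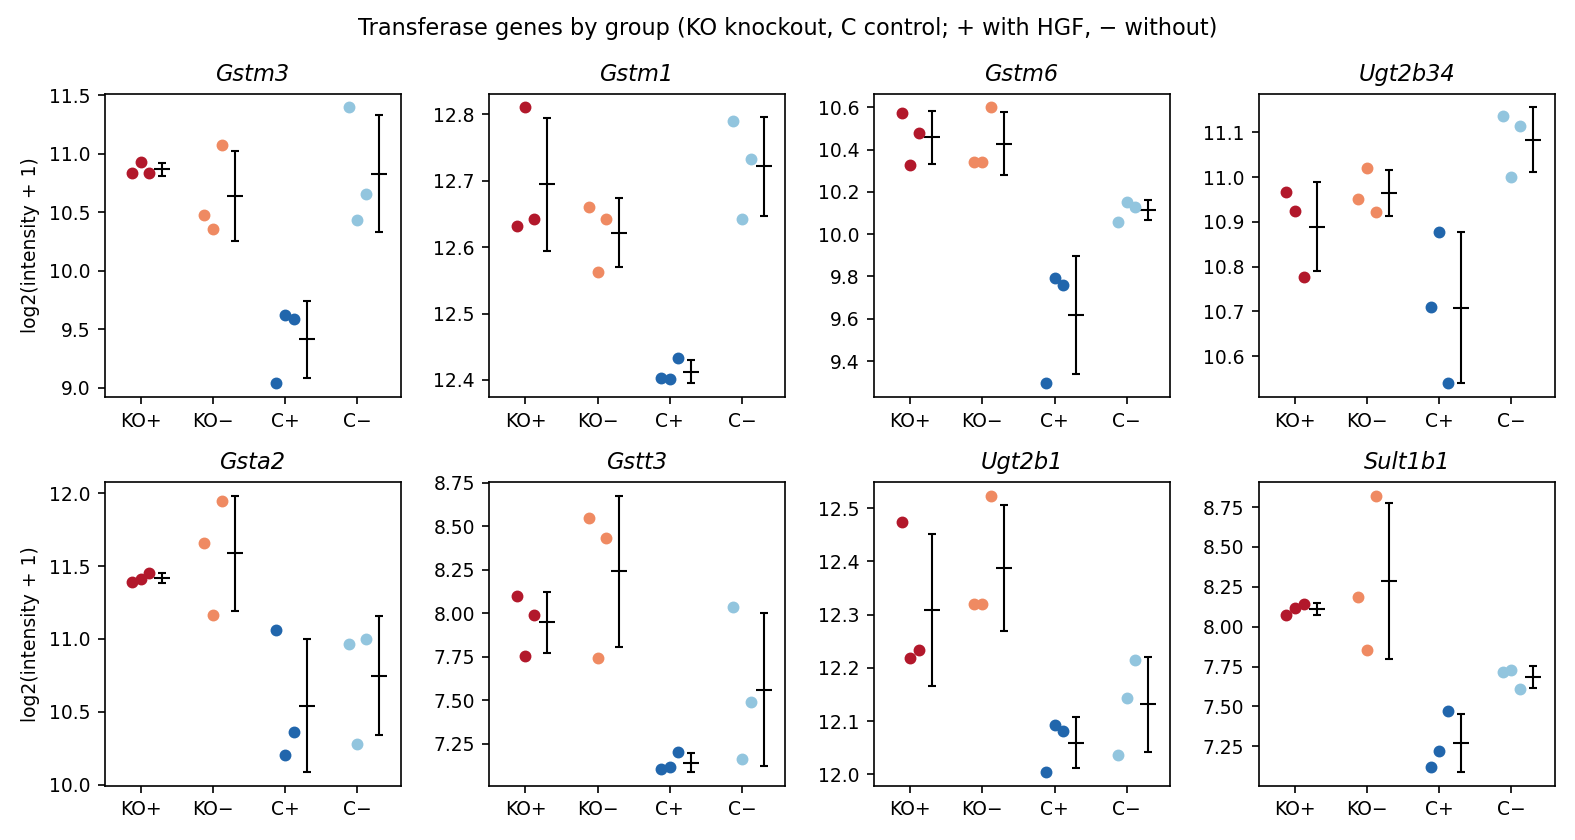
Values of 8 genes in log2(intensity + 1), 1 point per animal, with the mean and SD of each group of 3; knockout groups (KO) stand left of control groups (C), each with HGF (+) and without (−). The upper row holds genes low in control livers with HGF, such as Gstm3 at 9.04 to 9.62, and the lower row genes with small p in the averaged knockout comparison, such as Sult1b1, whose 6 knockout values exceed all 6 control values.

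Gstm6 had the smallest p of the members here. It read 10.34, 10.34 and 10.60 in knockout livers without HGF, against 10.06, 10.15 and 10.13 in control livers without HGF, with the HGF-treated values given above. The averaged difference was 0.58 ± 0.10 (SE, adjusted p = 0.119 by limma), and the lowest knockout value, 10.33, was higher than the highest control value, 10.15. Sult1b1 read 8.07, 8.12 and 8.14 in knockout livers with HGF and 8.19, 7.86 and 8.82 in knockout livers without HGF, against the control values of 7.12 to 7.73 given above. Replicate 3 without HGF was the highest, and no knockout value fell within the control span. The averaged difference was 0.72 ± 0.14 (SE, adjusted p = 0.157 by limma). It passed the threshold without replicate 2 of both knockout groups (0.83 ± 0.13, SE, adjusted p = 0.033 by limma), a fit that called 0.853% of all tested probe sets.

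Gsta2 read 11.39, 11.41 and 11.45 in knockout livers with HGF, against 11.06, 10.21 and 10.36 in control livers with HGF. The knockout livers were higher in both states, and the averaged difference was 0.86 ± 0.19 (SE, adjusted p = 0.179 by limma), 1.81-fold. Gstt3, a theta-class gene, read 8.10, 7.75 and 7.99 in knockout livers with HGF, against 7.11, 7.12 and 7.20 in control livers with HGF. Without HGF it read 8.55, 7.74 and 8.43 in knockout livers, against 8.03, 7.16 and 7.49 in control livers, where replicate 1 of the controls overlapped. The averaged difference was 0.74 ± 0.17 (SE, adjusted p = 0.193 by limma), and it too passed the threshold in that fit (0.92 ± 0.15, SE, adjusted p = 0.0386 by limma). Gsta4, which conjugates the lipid peroxidation product 4-hydroxynonenal, differed by 0.45 ± 0.12 and Gstm2 by 0.65 ± 0.16 (SE).

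Among the UGT genes Ugt2b1 had the smallest p. It read 12.47, 12.22 and 12.23 in knockout livers with HGF, against 12.004, 12.09 and 12.08 in control livers with HGF. Without HGF it read 12.32, 12.32 and 12.52 in knockout livers, against 12.04, 12.14 and 12.21 in control livers. The knockout values were higher throughout, with an averaged difference of 0.25 ± 0.08 (SE, adjusted p = 0.315 by limma). Ugt3a2, which in humans transfers other sugars than glucuronic acid, ran the other way, by -0.13 ± 0.07 (SE, adjusted p = 0.575 by limma). It read 11.49, 11.46 and 11.42 in knockout livers with HGF and 11.50, 11.46 and 11.44 in knockout livers without HGF. In control livers it read 11.48, 11.74 and 11.46 with HGF and 11.62, 11.66 and 11.57 without. The knockout values were the tighter, and the genotypes overlapped only through control livers with HGF. For Ugt2b5 the averaged difference was 0.13 ± 0.07 (SE, adjusted p = 0.625 by limma). Ugt2b38 had the largest averaged difference of the UGT genes in size, -0.87 ± 0.57 (SE, adjusted p = 0.656 by limma), with a wide spread within groups.

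In the SULT family Sult2a8 followed Sult1b1, with an averaged difference of 0.22 ± 0.09 (SE, adjusted p = 0.494 by limma) from the values given above. Sult1a1 read 11.76, 11.35 and 12.11 in knockout livers with HGF and 11.64, 11.93 and 11.84 in knockout livers without HGF. Its averaged difference was 0.29 ± 0.17 (SE, adjusted p = 0.609 by limma), and both genes overlapped between the genotypes.

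Two-sided exact permutation of the genotype labels within each HGF state allows 400 arrangements, so the smallest possible p is 0.005. That value was reached by Gstm6, Gsta2, Ugt2b1 and Sult1b1, while Gstt3 had an exact p of 0.01, Ugt3a2 0.015, Sult2a8 0.03, Ugt2b5 0.085 and Sult1a1 0.15. These 9 genes were taken for the smallest p of their families, so the exact values are not adjusted for that choice.

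Marker genes of other cell types and zones were read beside these results. The albumin gene Alb lay between 14.43 and 14.54 on all arrays. The summed intensity of the 7 hepatocyte genes on the array lay between 16.25 and 16.37 on the log2 scale. Alb took the identical value of 14.5251 on several arrays, and the sum is weighted toward the genes of highest intensity. Neither therefore shows that all hepatocyte genes were stable. With HGF in control livers, 2 of the 7, Tat and Hnf4a, were higher without overlap (14.1% of all probe sets), and 5 were lower on average. Of 6 bile duct genes 5 were on the array, and none passed the filter. Their summed level was 4.53 to 4.84 in knockout livers with HGF and 4.67 to 4.84 in knockout livers without HGF, against 4.68 to 5.78 in control livers with HGF and 4.62 to 4.78 in control livers without HGF. Epcam and Krt19 stayed under 4 on every array, while Sox9 read 3.29, 5.26 and 4.44 in control livers with HGF, against 3.34, 3.50 and 3.68 in those without. The part of these cells in the results was not tested. The pericentral genes mark hepatocytes near the central vein, where GST and UGT enzymes are known to be abundant. All 7 tested pericentral genes were higher on average in knockout livers, against 50.2% of all tested probe sets. Their median averaged difference was 0.38, and none was called, against 0.015% of all. At an unadjusted p under 0.05, 5 of them were higher (4.47% of all). For 3 of them all knockout livers were higher than all control livers (0.374% of all). Their summed level was 14.98 to 15.15 in knockout livers with HGF and 15.05 to 15.26 in knockout livers without HGF, against 14.75 to 14.79 in control livers with HGF and 14.87 to 14.88 in control livers without HGF. No knockout liver overlapped the controls in this sum. Its part in the transferase differences was not tested. Of the 4 tested periportal genes, 3 were lower on average in knockout livers (49.8% of all probe sets), with a median averaged difference of -0.07.

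In control livers, S100a8, S100a9 and acute phase genes differed beside the GST genes. The summed level of the 6 neutrophil genes on the array was 9.59 to 11.47 in control livers with HGF, against 5.32 to 6.61 in control livers without HGF, and 4.93 to 10.29 over the knockout livers. S100a8 and S100a9, which monocytes also express, were the only ones of the 6 to pass the filter and carried this sum. S100a8 read 9.07, 10.08 and 8.20 in control livers with HGF, against 5.51, 4.48 and 3.49 in those without. The granule genes Elane and Camp stayed under 3 on every array, and Cxcr2 overlapped between the groups. All 10 acute phase and NF-kappaB genes were higher on average with HGF (35.6% of all probe sets), with a median of 5.06. None was called, against 0.404% of all. Of the 8 sinusoidal endothelial genes 7 were lower on average with HGF (64.4% of all probe sets), with a median of -0.37 over the 8. Lyve1 ran the other way and differed most in size, by 2.61. It read 7.17, 5.71 and 5.94 in control livers with HGF, against 3.94, 3.38 and 3.66 in those without. The summed level of the 8 genes was 10.35 to 10.39 in control livers with HGF, against 10.73 to 10.78 in control livers without HGF. The part of these cells in the GST differences was not tested.

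Genes that supply or regulate the conjugation reactions were counted from 6 lists. Of 17 tested regulators, 10 were higher on average with HGF in control livers and 7 lower. At an unadjusted p under 0.05, 6 were higher (8.95% of all probe sets) and 0 lower (10.6% of all). Limma called 2 of them, both higher, against 0.404% of all tested probe sets. Bach1, a repressor at antioxidant response elements, read 6.23, 6.33 and 6.30 in control livers with HGF, against 4.66, 4.44 and 4.82 in control livers without HGF, a difference of 1.65 ± 0.28 (SE, adjusted p = 0.0452 by limma). Ahr, the aryl hydrocarbon receptor, read 7.30, 7.35 and 7.21 in control livers with HGF, against 6.73, 6.72 and 6.54 in control livers without HGF, a difference of 0.62 ± 0.10 (SE, adjusted p = 0.0418 by limma). Neither gene's groups overlapped. Maff, a small Maf protein, differed by 3.06 ± 0.70 (SE, adjusted p = 0.0801 by limma). Nfe2l2, which encodes Nrf2, read 9.81, 10.10 and 9.57 in control livers with HGF, against 9.15, 9.03 and 9.06 without, with no overlap. In knockout livers the HGF effect was -0.30 ± 0.28 for Bach1 and 0.20 ± 0.10 for Ahr (SE, adjusted p = 0.9995 by limma for both). The difference between the genotypes' HGF effects was -1.95 ± 0.40 for Bach1 (SE, adjusted p = 0.211 by limma) and -0.43 ± 0.15 for Ahr (SE, adjusted p = 0.377 by limma).

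No gene of the other 5 lists was called by limma in control livers, against 0.404% of all tested probe sets. Over all tested probe sets the median HGF difference was -0.09, and 64.4% were lower. At an unadjusted p under 0.05, 8.95% of all were higher and 10.6% lower. The 13 tested genes of glutathione supply and use had a median HGF difference of -0.07, with 2 higher and 1 lower at an unadjusted p under 0.05. Gss, glutathione synthetase, differed by -0.49 ± 0.19 and Txnrd1, thioredoxin reductase, by 0.46 ± 0.20 (SE). The 5 genes of glucuronic acid supply and removal had a median of -0.15, with Ugdh, which makes UDP-glucuronic acid, at -0.39 ± 0.17 (SE). For the 12 genes of sulfate donor supply and removal the median was 0.07, and Tpst1, a protein tyrosine sulfotransferase, differed by -0.51 ± 0.22 (SE). Of 13 other conjugating enzymes 12 were lower on average, with a median of -0.21, among them Inmt, a methyltransferase, at -0.68 ± 0.28 (SE). All 9 conjugate transporters were lower on average, but their median of -0.12 was near that of all probe sets. Slco1a4, an uptake transporter, differed by -1.33 ± 0.56 (SE).

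In the averaged knockout comparison none of the 6 lists held a called gene, against 0.015% of all tested probe sets, whose median was 0.00. The median was -0.07 for glutathione supply and use, -0.01 for glucuronic acid supply and removal, 0.00 for sulfate donor supply and removal and 0.10 for other conjugating enzymes. It was 0.15 for conjugate transporters and -0.05 for regulators. Nqo1, a quinone reductase and a known Nrf2 target, differed by 0.94 ± 0.27 (SE, adjusted p = 0.278 by limma). Gclc, the catalytic subunit of the first enzyme of glutathione synthesis and also a known Nrf2 target, differed by -0.31 ± 0.12 and Gss by -0.35 ± 0.14 (SE).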

How the data were processed

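Total RNA of 12 mouse livers was labelled with biotin and hybridised to Affymetrix arrays, per the labels' protocols. The authors deposited probe set intensities on a linear scale, made with GCRMA per the submitters' processing notes (no version stated). GCRMA corrects background by probe base composition and normalizes between arrays, so a shift shared by most genes would not show. Groups and replicate numbers came from the sample titles. Symbols came from the platform annotation, and 0 member symbols changed against RefSeq (GRCm38.p6). Of the 16475 probe sets left after 64 array controls were taken out, 15780 had 1 symbol, 695 none and 0 several.

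Values were taken as log2(intensity + 1), a scale that understates changes near background. Probe sets at or above 4 on at least 3 arrays were fitted in limma 3.58.1 (R 4.3.3), with 4 group means over all 12 arrays, 8 residual degrees of freedom and eBayes (prior degrees of freedom 2.26). The 6 contrasts were two-sided, with Benjamini-Hochberg adjustment over all 6683 probe sets and a call at an adjusted p under 0.05. With 3 animals per group, p-values rest on the spread between animals pooled over all 4 groups and moderated by eBayes. Those for control livers thus also rest on the spread among knockout livers. Alternatives covered the pseudocount, the filter, quantile normalization, blocks for replicate numbers, array weights, an intensity trend, the arrays fitted and leaving out arrays. Simulated data for HGF in control livers had 50 of 6683 probe sets changed at each size. Recovery was 20%, 62%, 92% and 98% at log2 changes of 0.5, 1, 2 and 4, with 10 false calls. Each simulated probe set varied independently, with 1 spread over all arrays. The knockout livers instead deviated jointly across probe sets, so these rates may not hold for the real arrays.

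Members, gene lists and alternatives were chosen with earlier results of these data known. Values per array are given for the 3 tested members of each family with the smallest p for HGF in control livers and for the averaged knockout effect, the 2 with the smallest p in the other HGF comparison and in the interaction. All members below the filter are named. Genes of other lists are the called ones, up to 3 with the smallest p, and Nfe2l2 as the gene of Nrf2.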

Additional observations from a re-analysis of the deposited data

How the results depend on the processing

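No member was called by limma in the 6 comparisons of the report; 650 recomputed values of single genes kept their direction and side of the threshold, 22 passed it and 1 reversed. For HGF in control livers 1 member, Gstm3, was called with log2(intensity + 16) (0.613% of all probe sets called), with the groups of the contrast only (12%) and without replicate 2 of both knockout groups (8.16%); leaving out 1 array at a time gave 0 to 1 (Gstm3 without replicate 2 or 3 of the knockouts without HGF, or replicate 3 of those with HGF). Array weights, whose estimation stopped before it converged, gave 8 members for HGF in control livers (20.2% of all probe sets called), 4 for the knockout effect without HGF (9.53%), 5 with HGF (4.34%), 11 for the averaged knockout effect (8.53%) and 1 for the interaction (4.01%), and turned Ugt2b1 for HGF in knockout livers to 0.0702 against -0.0785. The averaged knockout effect had 1 member (Gstm6) with replicate pairs as a random block (0.269% of all), 2 (Gstt3 and Sult1b1) without replicate 2 of both knockout groups (0.853% of all) and 0 to 1 with 1 array left out (Sult1b1 without replicate 2 of the knockouts without HGF). With no filter the SULT medians were -0.0217 for HGF in control livers and 0.11 for the averaged knockout effect; the second was 0.18 without replicate 3 of the knockouts without HGF and replicate 2 of the controls with HGF, whose descriptions in the labels carry a letter after the array number. The UGT averaged knockout median was 0.11 without replicate 2 of both knockout groups. With 1 array left out, HGF medians in control livers were -0.36 to -0.28 for GST, -0.23 to -0.13 for UGT and -0.34 to -0.15 for SULT, and averaged knockout medians 0.19 to 0.31, 0.0215 to 0.0826 and 0.23 to 0.41 in the same order. The cause of these shifts was not tested. Animals of a genotype share only a replicate number: deviations of same-numbered livers correlated at 0.12, -0.83 and -0.70 in knockouts and 0.10, 0.18 and 0.05 in controls. The random block of such pairs, which called Gstm6, used a correlation of -0.257. A negative value lowers the error of a difference averaged over both HGF states. With the replicate number as a fixed block (replicate block) 0 members were called in all 6 comparisons, and the lowest adjusted p for HGF in control livers was 0.29 by limma. With 3 arrays per group, probe sets near background limit what can be seen for 10 of 42 members.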

Other observations

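Ugt2b38, a gene of the run on chromosome 5, varied most among the tested UGT genes within a group. It read 7.42, 5.59 and 8.52 in knockout livers with HGF and 5.64, 7.82 and 6.36 in knockout livers without HGF. In control livers it read 7.51, 8.20 and 7.76 with HGF and 6.34, 8.33 and 8.41 without. The clock output gene Dbp, whose level swings over the day, also differed between knockout livers, with 5.09, 11.05 and 2.81 with HGF and 10.72, 2.92 and 10.72 without. The 3 knockout livers with Dbp above 10 were the 3 lowest of the 6 for Ugt2b38. They were also the 3 with the lowest response index, at 0.02 with HGF and 0.12 and 0.04 without. That index is built from many other probe sets, so a link particular to Dbp and Ugt2b38 cannot be told apart from this wider split. In control livers Dbp lay at 5.21, 2.61 and 3.55 with HGF and 6.22, 5.91 and 7.5 without. These genes were singled out after their values were seen, and the relation was not tested.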
